A study of Mus musculus with 292 samples.

Results

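The comparison described here follows the mouse cerebral cortex across the onset of darkness, from ZT12 to ZT15. Zeitgeber time (ZT) counts, by convention, the hours since lights-on, so that ZT12 is the end of the light phase and ZT15 lies 3 h into the dark. The samples were chosen by their ZT label: 12 cortex libraries at ZT12 and 6 at ZT15, together 18 of the 78 cortex libraries and of the 292 libraries in the series. All came from the right hemisphere of wild-type C57BL/6J males aged 26 weeks, and no transgene, treatment or agent is named for either group. ZT12 was sampled at 2 time points 24 h apart, with 6 mice at 12 h and 6 mice at 36 h, whereas ZT15 was sampled once, at 15 h, in 6 mice. Each library is messenger RNA of 1 mouse, so the replicates are animals. Library totals ran from 29201659 to 36956057 gene counts. The light schedule itself is not stated in the labels.

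Mice are nocturnal, and dark onset is when they wake, move and feed most. In cortical neurons, synaptic activity and calcium entry switch on immediate early genes, some of which encode transcription factors (Fos, Egr1) and others synaptic proteins (Arc, Homer1); the same kinase cascade also induces its own inhibitors. The circadian clock, a loop in which CLOCK and BMAL1 (the product of Arntl) drive the Per and Cry genes that then repress them, runs in the cortex too, and chaperone genes respond to protein load and temperature.

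The libraries were checked first. The cortical marker Slc17a7, a vesicular glutamate transporter of cortical excitatory neurons, lay between 981 and 1213 CPM (counts per 1000000 counts of the library) at ZT12 and between 1011 and 1292 CPM at ZT15, so the tissue label holds. However, 3 of the 6 ZT15 libraries, replicates 3, 5 and 6, stood apart from the rest. Their score on the first principal component (34.2% of the variance) was 40.8 to 51.4, against -0.61 to 17.1 in the other ZT15 libraries and -23.5 to 0.57 at ZT12. In these 3 libraries Gm42418, a gene model that overlaps ribosomal RNA and collects its reads, had 15673 to 23839 CPM, compared with 459 to 4820 CPM in the other ZT15 libraries and 586 to 7441 CPM at ZT12. The summed level of 10 markers of striatal projection neurons, the cells of the region under the cortex, was 302 to 567 CPM in the same 3 libraries, 982 to 1454 CPM in the other ZT15 libraries and 721 to 2465 CPM at ZT12. Thus Gm42418 and the striatal markers set 3 of the 6 ZT15 libraries apart, while the other ZT15 libraries overlapped with ZT12 in both. Since these 3 are all at ZT15, the 2 measures also differed between the groups. Every gene was therefore also tested in 3 further fits, added after this was seen: with the striatal marker sum as a term, with the log level of Gm42418 as a term, and without ZT15 replicates 3, 5 and 6. A gene that passed in the same direction in these and in the fit of ZT alone (the ZT-alone fit) is said to be called in all 4 fits.

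**Figure D1:**
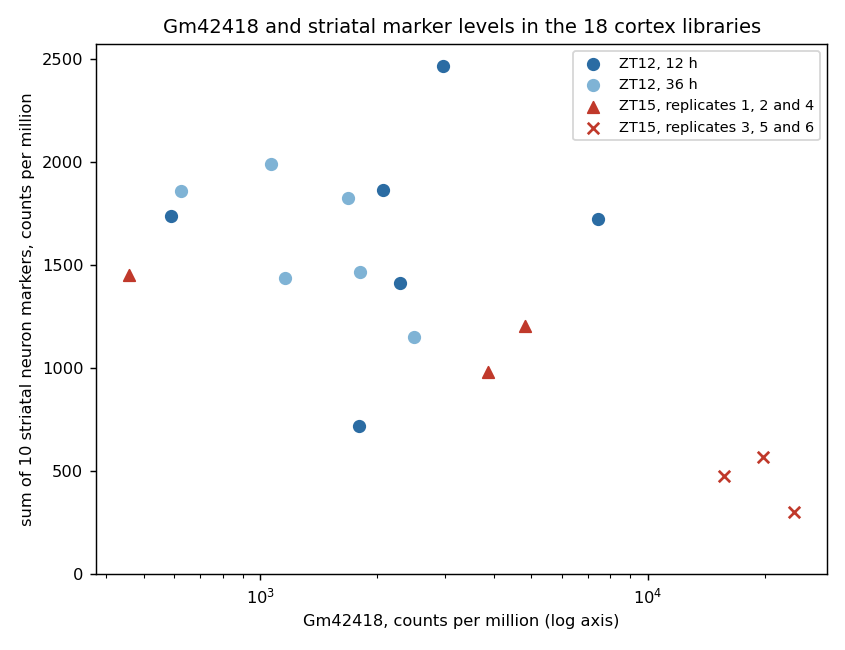
Level of Gm42418 (CPM, log axis), a ribosomal RNA model, against the summed CPM of 10 striatal projection neuron markers in each of the 18 cortex libraries, with ZT12 split by time point. ZT15 replicates 3, 5 and 6 (crosses) sit at the lower right, at 15673 CPM or more of Gm42418 and 567 CPM or less of striatal markers, away from the other 15 libraries.

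Across lights-off 3149 genes were higher and 3090 were lower at ZT15, of 18406 tested (adjusted p under 0.05 by the quasi-likelihood test of edgeR, which gave all adjusted p below, with correction after Benjamini and Hochberg). These were 33.9% of the genes tested, 17.1% higher and 16.8% lower, and these shares are the background for every list below. With a change of at least 1.5-fold in addition, 281 genes (1.53%) were higher and 763 (4.15%) lower. The split depended on scaling: with library totals in place of trimmed-mean factors, 1967 genes were higher and 4100 lower, 32.4% of the calls being higher against 50.5%. The median log2 change of all genes was then -0.04, compared with 0.01. In all 4 fits, 560 genes (3.04%) were higher and 426 (2.31%) lower. All 6 ZT15 libraries lay above all 12 ZT12 libraries for 272 genes (1.48%) and below them for 432 genes (2.35%). The number called was 1299 with the striatal term (54.5% higher), 2724 with the Gm42418 term (48.6% higher) and 1564 without the 3 libraries (58.3% higher).

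Activity-induced transcription factors rose. Of 24 tested, 16 rose, none fell and 13 rose in all 4 fits, with a median log2 change of 0.70 against 0.01 over all genes. Egr2, a zinc finger factor of the early growth response family, had 0.616, 2.47 and 4.43 CPM as the lowest, median and highest of the 12 ZT12 libraries, and 5.49, 8.60 and 9.78 CPM in the 6 ZT15 libraries. The groups did not overlap, and the change was 3.50-fold (log2 1.81 ± 0.23, SE, adjusted p = 8.87e-06). Fos, a subunit of the AP-1 factor, went from 6.23, 12.1 and 20.2 CPM to 24.4, 29.7 and 37.6 CPM, again without overlap (log2 1.32 ± 0.22, adjusted p = 0.000171). Egr1, which is much more abundant, had 128, 190 and 235 CPM at ZT12 and 328, 406 and 460 CPM at ZT15 (log2 1.15 ± 0.11, adjusted p = 2.53e-07). Every ZT15 library was above every ZT12 library for this gene as well. Without ZT15 replicates 3, 5 and 6 the log2 changes were 1.47, 1.01 and 0.92 for Egr2, Fos and Egr1. Ier5, an immediate early gene tied to the heat shock response, rose 1.85-fold in the ZT-alone fit. Other members that rose in all 4 fits were Fosb, Fosl2, Egr3, Nr4a1 and Nr4a3 (orphan nuclear receptors), Ier3, Klf4, Klf10 and Crem, with log2 changes from 0.59 (Crem) to 1.07 (Nr4a3). Other immediate early genes did not pass. Npas4, the neuron-specific factor that responds to calcium, had a log2 change of 0.34 ± 0.16 (adjusted p = 0.0932), Junb 0.42 ± 0.24 (adjusted p = 0.177), Jun -0.18 ± 0.09 (adjusted p = 0.121) and Nr4a2 -0.35 ± 0.15 (adjusted p = 0.0768).

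Among 30 activity-induced effectors, which act at the synapse or in signalling, 17 rose and 1, Gadd45g, fell. The median log2 change was 0.27, and 8 rose in all 4 fits. Arc, the activity-regulated protein that governs removal of AMPA receptors, lies at chromosome 15, 74669083 to 74672570 (GRCm38). Its level was 41.5, 99.2 and 174 CPM at ZT12. At ZT15 replicates 1 to 6 had 257, 149, 528, 368, 467 and 244 CPM. Only ZT15 replicate 2 fell within the ZT12 range, and the change was 3.41-fold (log2 1.77 ± 0.27, adjusted p = 7.84e-05). Homer1, a scaffold of postsynaptic glutamate receptors (chromosome 13, 93299635 to 93405129), went from 143, 161 and 193 CPM to 266, 302 and 332 CPM. Its groups were far apart, with a log2 change of 0.93 ± 0.06 (adjusted p = 9.71e-09), and the smallest estimate of the added fits was 0.77, with the striatal term. The reads are counted per gene, so the short activity-induced isoform of Homer1 cannot be told from the long ones. Bdnf, a neurotrophin, rose 1.74-fold (log2 0.80 ± 0.10), Pcsk1, a protease that processes prohormones, 1.57-fold (0.65 ± 0.07), and Nptx1, a neuronal pentraxin that clusters AMPA receptors, 1.24-fold (0.31 ± 0.04). All 3 had no overlap between groups. Plk3, a polo-like kinase (0.56), Gpr3, a constitutively active receptor coupled to cyclic AMP (0.91), and Trib1, a pseudokinase (1.02 ± 0.13), also rose in all 4 fits. Several classical members gave small estimates, such as Rgs2 (log2 0.00 ± 0.05), Plk2 (0.06 ± 0.04), Scg2 (0.07 ± 0.06) and Btg2 (-0.09 ± 0.15). Per length, in the authors' FPKM (fragments scaled to gene length and library size), the level of Arc was 33.4 ± 14.6 (SD, n = 12) at ZT12 and 110 ± 47.3 (n = 6) at ZT15. Arc was thus below Nptx1 in mean level at ZT12 (68.6) and above it at ZT15 (81.9). Homer1 had 15.6 ± 1.44 and 28.6 ± 2.57 FPKM.

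**Figure D2:**
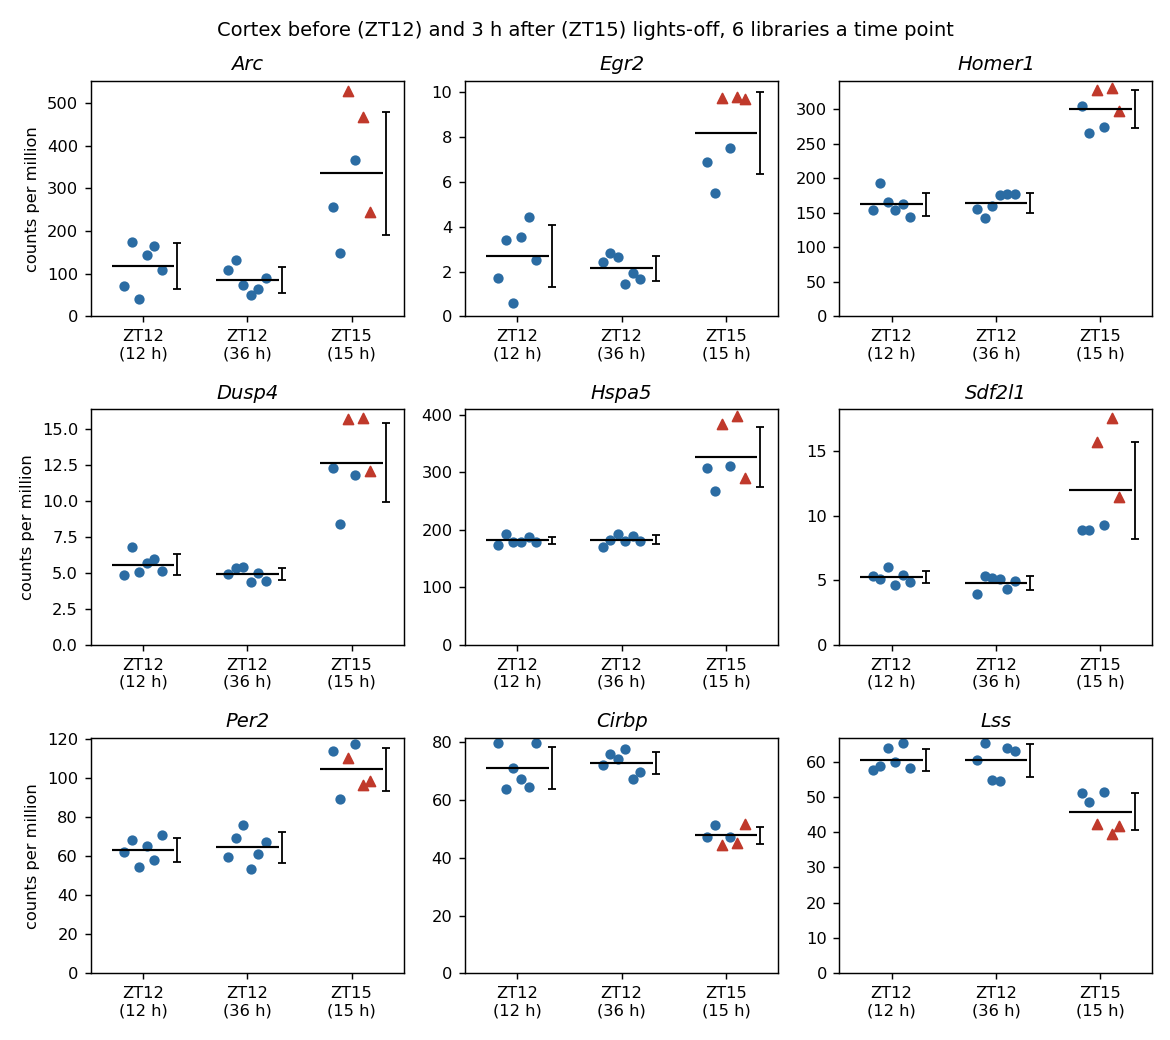
CPM of 9 genes in each cortex library at ZT12 (12 h and 36 h) and ZT15, 6 libraries a time point, with mean (line) and SD (bar); red triangles are ZT15 replicates 3, 5 and 6. Homer1, Dusp4, Hspa5, Sdf2l1, Egr2 and Per2 are higher and Cirbp and Lss are lower at ZT15 in every library, whereas Arc overlaps in 1 ZT15 library.

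The feedback inhibitors of the MAP kinase cascade rose with the early genes. Of 16 tested, 12 rose and none fell in the ZT-alone fit (median log2 change 0.47), and 9 rose in all 4 fits. With the Gm42418 term 9 rose and 1 fell. For 7 of the 16 all ZT15 libraries were above all ZT12 libraries. Dusp4, a phosphatase that inactivates ERK in the nucleus, had 4.35, 5.06 and 6.80 CPM at ZT12 and 8.40, 12.1 and 15.7 CPM at ZT15. The groups did not overlap (log2 1.32 ± 0.11, adjusted p = 4.65e-08), and the change was 1.06 without the 3 libraries. The Spred genes, membrane-bound inhibitors of Ras signalling to RAF, moved as a family: Spred1 by log2 0.46 ± 0.05, Spred2 by 0.63 ± 0.06 and Spred3 by 0.48 ± 0.04, each without overlap. Spry4 (0.99 ± 0.12), Spry2 (0.43 ± 0.05), Dusp5 (0.84 ± 0.12), Dusp6 (0.75 ± 0.08) and Dusp14 (0.70 ± 0.07) also rose in all 4 fits. Dusp1, an early phosphatase of p38 and JNK, rose in the ZT-alone fit (0.55 ± 0.14) and in none of the 3 added fits. Dusp2 (0.09 ± 0.22), Dusp10 (0.19 ± 0.09), Dusp16 (-0.15 ± 0.06) and Spry1 (0.07 ± 0.07) did not pass.

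Chaperones and folding enzymes of the endoplasmic reticulum (ER) rose almost throughout. Of 19 tested, 17 rose and 14 did so in all 4 fits, with a median log2 change of 0.41, and for 12 the groups did not overlap. Hspa5, which encodes BiP, the main ER chaperone, lies at chromosome 2, 34771970 to 34777547. It was nearly constant at ZT12, with 170, 181 and 193 CPM, and had 268, 310 and 398 CPM at ZT15. The change was 1.86-fold (log2 0.90 ± 0.07, adjusted p = 1.54e-08), and 0.71 to 0.79 on the log2 scale in the added fits. Sdf2l1, a cofactor of BiP, went from 3.91, 5.10 and 5.99 CPM to 8.85, 10.4 and 17.5 CPM (log2 1.31 ± 0.13, adjusted p = 5.37e-07). The values of ZT15 replicates 3, 5 and 6 were 15.7, 17.5 and 11.4 CPM and those of the others 8.85 to 9.28 CPM, so that its change was 0.87 without those 3 libraries. Pdia4 and Pdia6, disulfide isomerases, rose by log2 0.89 ± 0.09 and 0.53 ± 0.05. Xbp1, a transcription factor of the unfolded protein response, rose by 0.64 ± 0.06, Manf, a secreted ER stress protein, by 0.73 ± 0.08, and Creld2 by 0.55 ± 0.07. The estimates were 0.03 ± 0.04 for Canx, the lectin chaperone calnexin, and 0.01 ± 0.04 for Selenos, and neither passed. In contrast the integrated stress response list, fed by the kinases that phosphorylate eIF2α, had 5 higher and 3 lower of 20, and Atf4 (log2 0.39 ± 0.05) was its single member higher in all 4 fits. Trib3, a target of CHOP, fell in the ZT-alone fit (-0.70 ± 0.21).

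The promoters of the ER list were then read. The ER stress response element, bound by ATF6 and NF-Y, was searched on both strands as CCAAT, then 9 bases of any kind, then CCACG, in the 250 bases before each RefSeq start (GRCm38.p6). It was present in 8 of the 17 list members that matched the promoter table (47.1%) and in 35 of all 27025 genes of the table (0.13%). This share describes the sequences of a list of known ER stress genes and does not test their change at ZT15. The 8 genes were Calr, Canx, Creld2, Dnajc3, Hsp90b1, Hspa5, Pdia6 and Syvn1, of which all but Canx rose. Stretches around the match are shown for 5 that rose and for Canx, on the gene's strand with 20 bases to either side and the match in capitals. They lie at chr2:34772005-34772063 (plus), chr12:17266471-17266529 (plus), chr15:88819500-88819558 (plus), chr14:118937807-118937865 (plus), chr10:86705513-86705571 (minus) and chr11:50325780-50325838 (minus), in the order given.
Hspa5: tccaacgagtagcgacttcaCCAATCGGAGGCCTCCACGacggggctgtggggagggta
Pdia6: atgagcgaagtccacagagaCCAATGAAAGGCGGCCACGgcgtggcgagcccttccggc
Creld2: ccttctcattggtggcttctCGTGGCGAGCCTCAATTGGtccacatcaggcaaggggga
Dnajc3: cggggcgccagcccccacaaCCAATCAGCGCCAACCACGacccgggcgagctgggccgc
Hsp90b1: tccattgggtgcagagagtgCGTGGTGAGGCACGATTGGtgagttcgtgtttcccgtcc
Canx: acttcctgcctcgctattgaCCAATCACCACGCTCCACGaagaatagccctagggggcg
In Creld2 and Hsp90b1 the match is on the opposite strand and so reads as its complement, and Hsp90b1 holds a further match at bases 212 to 194 before its start. Sdf2l1, Pdia4 and Xbp1 have no match to these letters in this window, which says nothing of the factors that bind there.

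The cyclic AMP response element TGACGTCA, the site of CREB, was searched in the same way. It was found in 5 of 23 matched activity-induced effectors (21.7%) and in 478 of 27025 genes (1.77%). The 5 were Arl4d, Btg2, Pcsk1, Plk2 and Scg2. Of these Pcsk1 rose, and the other 4 did not pass. The element was also in 2 of 14 matched MAP kinase feedback genes (14.3%) and 1 of 9 clock output genes (11.1%). Among matched activity-induced transcription factors it was in 1 of 19 (5.26%). Pcsk1 (chr13:75089759-75089806, plus) and Scg2 (chr1:79440067-79440114, minus) are shown with the match in capitals, 1 that rose and 1 that did not pass.
Pcsk1: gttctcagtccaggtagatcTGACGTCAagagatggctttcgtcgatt
Scg2: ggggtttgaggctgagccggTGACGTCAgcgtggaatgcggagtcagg
The CArG box, the site of serum response factor, was in 1 of 19 matched activity-induced transcription factors (Egr2) and 1 of 14 MAP kinase inhibitors (Dusp5), compared with 1.62% of all genes. At 1 of its annotated starts, Egr2 has it 72 to 63 bases before the start (chr10:67537777-67537826, plus), with the match in capitals.
Egr2: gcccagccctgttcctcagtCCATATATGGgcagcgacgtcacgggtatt

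Of 20 genes in the cytosolic chaperone list 16 rose and none fell (median log2 change 0.28), 7 of them in all 4 fits. The list also holds Hspd1 and Hspe1, which encode mitochondrial chaperones. Hspa1b, the stress-inducible HSP70, was low and rose most, from 1.38, 1.89 and 2.22 CPM to 3.18, 4.55 and 7.34 CPM (log2 1.44 ± 0.15, adjusted p = 6.39e-07), with no overlap. Its near-identical neighbour Hspa1a rose by log2 0.97 ± 0.13, and reads of this pair may be split between the copies. Dnajb1, an HSP40 cochaperone, went from 41.8, 44.1 and 45.9 CPM to 54.4, 58.2 and 77.6 CPM (0.58 ± 0.06, adjusted p = 1.93e-06). Hsph1, Fkbp4, Chordc1 and Dnajb4 were the others higher in all 4 fits, by log2 0.22 (Dnajb4) to 0.41 (Chordc1). The constitutive Hspa8 rose by 0.31 ± 0.05 in the ZT-alone fit and in 1 of the 3 added fits. Hspa4 (0.04 ± 0.03), Hspa4l (0.03 ± 0.06), Hspd1 (0.05 ± 0.04) and Hsp90aa1 (0.15 ± 0.06, adjusted p = 0.0609) did not pass. The heat shock element, searched in the same promoter windows, was in 2 of 17 matched members of this list (11.8%) and in 0.514% of all genes. The 2 were the mitochondrial Hspd1 and Hspe1. Their matches lie in the same stretches of chromosome 1 (55088039 to 55088091 and 55088044 to 55088096), read on opposite strands. The same site was thus counted for both genes. Among 12 antioxidant targets of NRF2, 4 rose and none fell, with Txnrd1, thioredoxin reductase (0.23 ± 0.03), the single one in all 4 fits.

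The core clock genes went in both directions. Of 20 tested, 9 rose and 3 fell (median log2 change 0.10), and 5 rose and 1 fell in all 4 fits. Per2 had 53.7, 63.5 and 76.2 CPM at ZT12 and 89.6, 105 and 117 CPM at ZT15, without overlap (log2 0.76 ± 0.07, adjusted p = 1.19e-07). The estimate was 0.76 to 0.84 in the added fits. Per1, its paralogue and an early gene itself, had 80.1, 114 and 138 CPM against 92.2, 133 and 149 CPM, and its change of 0.21 ± 0.11 did not pass (adjusted p = 0.143). With the striatal term it was 0.40. Bhlhe40, a repressor of E-box genes that is also induced by activity, rose from 117, 139 and 149 CPM to 186, 217 and 259 CPM (0.75 ± 0.07, adjusted p = 1.3e-07). Arntl, which encodes BMAL1, rose 1.31-fold (0.39 ± 0.05), Cry1 1.29-fold (0.37 ± 0.05) and Csnk1e, a kinase of PER proteins, 1.21-fold (0.28 ± 0.04), each in all 4 fits. Ciart, a repressor of CLOCK and BMAL1, fell from 24.1, 32 and 34.3 CPM to 20.6, 22.1 and 24.0 CPM (-0.43 ± 0.07, adjusted p = 0.000109), with all ZT15 libraries below all ZT12 libraries. Per3 (-0.14 ± 0.05) and Fbxl21, a ubiquitin ligase subunit for cryptochromes (-0.59 ± 0.13), fell in the ZT-alone fit, the former in none and the latter in 1 of the added fits. Clock (-0.08 ± 0.06), Nr1d1 (-0.11 ± 0.05, adjusted p = 0.0789), Nr1d2 (0.05 ± 0.06) and Rora (-0.03 ± 0.07) did not pass. The E-box CACGTG was in the 250 bases before the start of 26.7% of the 15 matched core clock genes and of 6.86% of all genes. Other lists held it too: the share was 21.1% in the activity-induced transcription factors, 22.2% in clock output, 17.6% in ER chaperones, 17.4% in the effectors, 14.3% in MAP kinase feedback and 11.8% in cytosolic chaperones.

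In the clock output list 4 of 10 rose and 3 fell. Usp2, a deubiquitinase, fell from 74.8, 88.5 and 97.4 CPM to 66.2, 66.9 and 73.8 CPM (log2 -0.30 ± 0.05, adjusted p = 8.36e-05) and was the one lower in all 4 fits. Dbp, a PAR domain factor driven by E-boxes, fell by log2 0.32 in the ZT-alone fit (SE 0.06) and in 2 of the added fits, and Tspan4 likewise (-0.31 ± 0.07). Hlf (0.28 ± 0.05), Wee1 (0.27 ± 0.05) and Nfil3 (0.60 ± 0.11) rose in the ZT-alone fit and in 2, 1 and 1 of the added fits. Tef (0.03 ± 0.03), Nampt (-0.01 ± 0.04) and Pik3r1 (-0.04 ± 0.05) were level within their errors.

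Cirbp, an RNA-binding protein whose messenger rises in the cold, fell in all ZT15 libraries. It had 63.9, 71.6 and 79.6 CPM at ZT12 and 44.5, 47.1 and 51.6 CPM at ZT15, a fall of 1.45-fold (log2 -0.54 ± 0.05, adjusted p = 2.53e-07), and the estimate was -0.55 in each added fit. Rbm3, its cold-inducible relative, rose instead (0.28 ± 0.05), as did the kinase Clk1 (0.24 ± 0.06), both in all 4 fits. Of 26 genes of the glucocorticoid response 7 rose and 5 fell, with a median log2 change of 0.02. Fkbp5 (log2 -0.09), Tsc22d3 (0.19), Pdk4 (0.02) and Klf9 (0.03) were among the 14 members that did not pass. Hif3a, a dominant-negative hypoxia factor, fell from 13.9, 16.2 and 18.3 CPM to 5.06, 9.34 and 12.8 CPM without overlap (-0.79 ± 0.13, adjusted p = 0.0001), and Bcl6, a transcriptional repressor, rose (0.31 ± 0.06). Both held in all 4 fits.

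In the cholesterol list 7 of 24 fell and 1 rose, and with library totals as the scale 11 fell. Lss, lanosterol synthase, fell from 54.4, 60.1 and 65.4 CPM to 39.4, 45.3 and 51.4 CPM (-0.35 ± 0.05), and Insig1, the sterol-regulated retention factor of SCAP, by 0.34 (SE 0.06), each without overlap and in all 4 fits. Hmgcs1 (-0.12), which encodes an early enzyme of the pathway, fell in the ZT-alone fit only. Among 18 genes of insulin signalling and FOXO targets, 6 rose and 4 fell. Irs2, an insulin receptor substrate, rose by 0.67 ± 0.07, Trib2, a pseudokinase, by 0.74 ± 0.06 and Igf1r, the IGF1 receptor, by 0.17 ± 0.05. Txnip, an inhibitor of thioredoxin and of glucose uptake, fell by 0.51 (SE 0.09). All 4 were called in all 4 fits. The Txnip model shares 19.4% of its exonic bases with Gm15441.

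**Figure D3:**
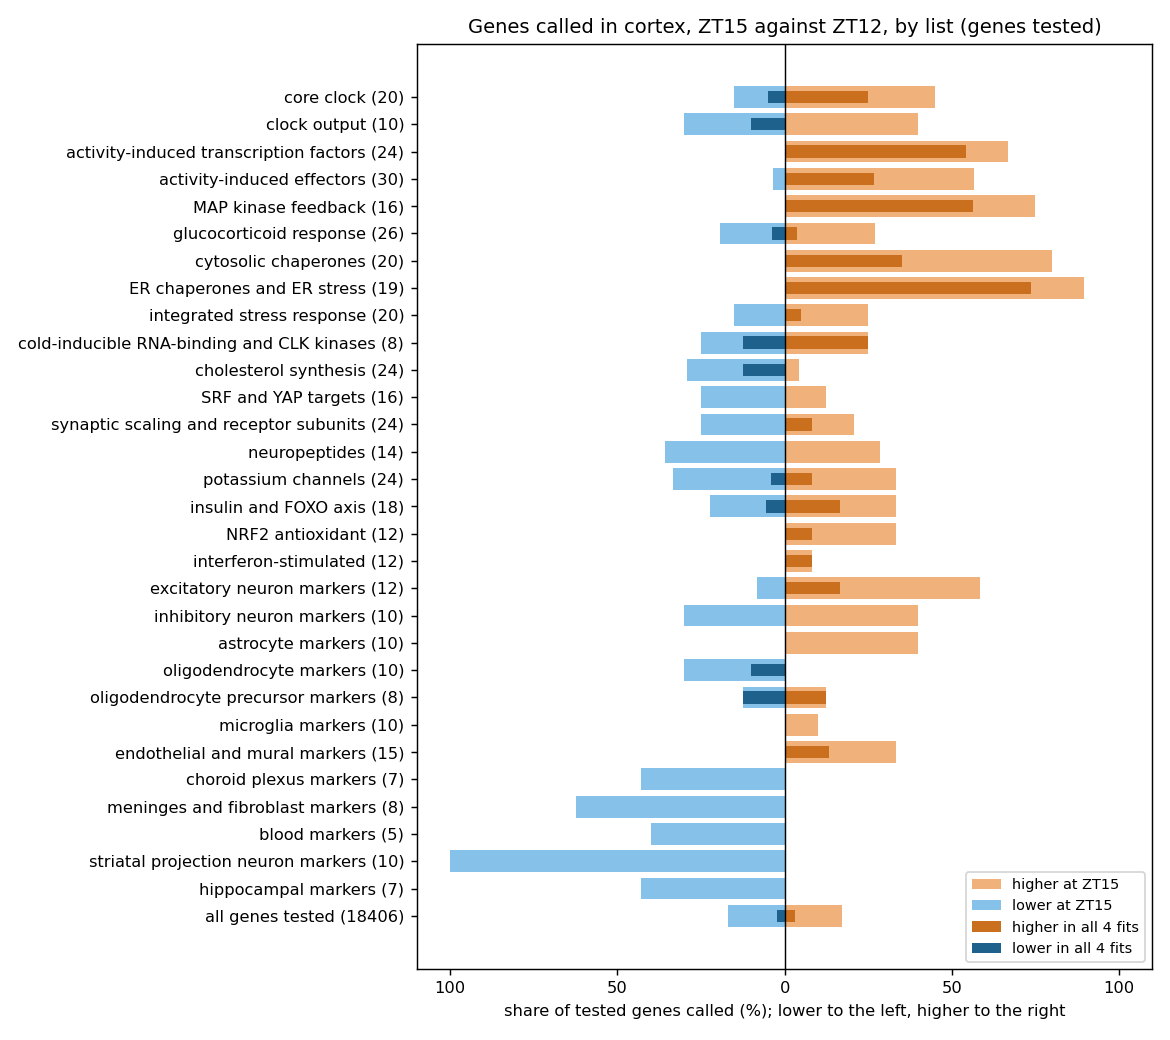
Share of the tested genes of each list (number tested in brackets) called higher (right) or lower (left) at ZT15 in the ZT-alone fit (pale) and in all 4 fits (dark). ER chaperones (17 of 19 higher), cytosolic chaperones (16 of 20) and MAP kinase feedback genes (12 of 16) reach furthest right, and all 10 striatal markers lie to the left in the ZT-alone fit with none in all 4 fits; the background over all genes is at the bottom.

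Outside the lists, Serinc2, a serine incorporator, rose 2.92-fold, from 3.75, 4.46 and 5.12 CPM to 8.67, 13.3 and 15.6 CPM (log2 1.55 ± 0.12, adjusted p = 1.54e-08). It had 14.8 to 15.6 CPM in ZT15 replicates 3, 5 and 6 and 8.67 to 11.7 CPM in the others, and the change was 1.15 without those 3. Cbln4, a secreted synapse organiser of the cerebellin family, rose 2.23-fold (1.16 ± 0.11), Gadd45a, a stress-induced growth arrest gene, by 1.22 ± 0.10, and Tnfrsf25, a death domain receptor, by 1.27 ± 0.16, all in all 4 fits. Galnt9, a glycosyltransferase, rose by 0.99 ± 0.08 and was picked after its values were seen. Of the falls, Oacyl, an O-acyltransferase-like gene, went from 2.72, 3.39 and 4.07 CPM to 0.736, 1.48 and 1.61 CPM (-1.29 ± 0.12, adjusted p = 2.53e-07). Angptl2, a secreted angiopoietin-like protein (-0.98 ± 0.11), Brca2, a DNA repair gene (-0.93 ± 0.09), and Map3k21, a mixed-lineage kinase (-0.90 ± 0.08), fell with no overlap between groups. These 4 were chosen after their values were seen, among the genes lower in all 4 fits. Of the largest falls that the naming rule took, Ano2, a calcium-activated chloride channel (-1.74 ± 0.31), Scn9a, a sodium channel (-1.60 ± 0.24), and Ankfn1 (-1.51 ± 0.23) held in all 4 fits, though with the striatal term they were -0.70, -0.93 and -0.76.

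Many of the other largest changes moved with the 2 library measures. Lars2, a mitochondrial leucyl-tRNA synthetase, had 82.1, 210 and 579 CPM at ZT12 and 93.1, 895 and 1927 CPM at ZT15. It had 1284 to 1927 CPM in ZT15 replicates 3, 5 and 6, its log2 change was 1.97 ± 0.43 in the ZT-alone fit, and 0.10 with the Gm42418 term. The small RNA models Rny1 and n-R5-8s1 were also high (2.7 ± 0.51 and 2.83 ± 0.55 in the ZT-alone fit, called in none of the added fits). All 10 markers of striatal projection neurons were lower (median log2 change -1.05), and none was called with the striatal term, by the construction of that fit, or without the 3 libraries. Drd1, the dopamine D1 receptor, had 31.5, 73.5 and 102 CPM at ZT12 and 9.81, 31 and 66.2 CPM at ZT15. The groups overlapped widely, and the change was -1.02 ± 0.28 (adjusted p = 0.00891) in the ZT-alone fit and -0.41 without the 3 libraries. Six3, a homeobox gene expressed in striatal neurons, had 0.0861 to 2.32 CPM in ZT15 replicates 3, 5 and 6, 4.25 to 5.96 CPM in the other ZT15 libraries and 1.75 to 14.8 CPM at ZT12. In bulk tissue, fewer cells of a type, less RNA per cell and a differing amount of adjoining striatum in the sample cannot be told apart.

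The neuropeptides Penk (-1.11 ± 0.27), Tac1 (-0.75 ± 0.21) and Nts (-2.17 ± 0.50), of which Penk and Tac1 are also striatal markers, fell in the ZT-alone fit, and of the 14 neuropeptides tested 4 rose and 5 fell, none in all 4 fits. Npy rose in the ZT-alone fit and in 1 added fit (0.57 ± 0.11). Choroid plexus markers had 3 lower of 7, meningeal markers 5 of 8, blood markers 2 of 5 and hippocampal markers 3 of 7, with none in all 4 fits. The summed choroid plexus level ranged from 23.6 to 570 CPM at ZT12 and from 3.70 to 88.8 CPM at ZT15. The part of these other tissues in the changes of other genes was not tested.

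Markers of the cell types of the cortex were counted next. Of 12 excitatory neuron markers 7 rose and 1 fell, 2 rising in all 4 fits: Neurod6, a bHLH factor of upper and deep layer neurons (0.65 ± 0.10, and 0.34 with the striatal term), and Cux2, an upper layer factor (0.23 ± 0.05). Of 10 inhibitory neuron markers 4 rose and 3 fell, none in all 4 fits. Of 10 astrocyte markers 4 rose and of 10 microglial markers 1, none in all 4 fits. With library totals as the scale these were 2 and 0, with 2 and 1 lower. Opalin, a myelin glycoprotein of oligodendrocytes, fell from 19.7, 24.0 and 26.0 CPM to 11.8, 12.8 and 17.5 CPM with no overlap (-0.75 ± 0.07, adjusted p = 4.07e-07) in all 4 fits. The oligodendrocyte list as a whole had 3 lower of 10, its summed level was 4516 to 5624 CPM at ZT12 and 4230 to 6166 CPM at ZT15, and the fall of Opalin was 1.69-fold. Of 8 oligodendrocyte precursor markers 6 did not pass. Pdgfra, the receptor that marks oligodendrocyte precursors, fell (-0.34 ± 0.05) and Gpr17, a receptor of the committed stage, rose (0.38 ± 0.06). Cldn5, the tight junction claudin of brain endothelium, rose from 9.73, 14.8 and 17.4 CPM to 19.6, 22.2 and 26.4 CPM without overlap (0.73 ± 0.10, adjusted p = 1.69e-05), and Flt1, a VEGF receptor, rose by 0.30 ± 0.05, while 10 of the 15 endothelial and mural markers did not pass. Of 24 potassium channel genes 8 rose and 8 fell. Kcnk1, a tandem-pore channel (0.31 ± 0.05), rose, and Kcns2, an electrically silent subunit, fell (-0.41 ± 0.07), in all 4 fits. Of 24 synaptic receptor and scaffold genes 5 rose and 6 fell, with Shank2 (0.41 ± 0.05) and Gabra2 (0.21 ± 0.05) higher in all 4 fits. Of 12 interferon-stimulated genes Irf9 rose (0.45 ± 0.07), and of 16 targets of SRF and YAP 2 rose and 4 fell, none in all 4 fits.

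The 2 ZT12 time points, with 6 libraries each, were also compared with each other. Between 36 h and 12 h edgeR called 0 of 18406 genes (0.0%), with 234 at an unadjusted p under 0.05. A lack of calls with so few libraries does not show that the time points were alike. Against the 12 h libraries alone, the ZT15 libraries differed in 1388 genes higher and 1625 lower, and against the 36 h libraries alone in 2004 and 2132.

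Among the 12 consecutive 3-h steps of the cortex series, each 6 libraries against 6 and fitted over all 78 libraries (19564 genes), the step from 12 h to 15 h gave 1999 called genes (10.2%), 865 higher and 1134 lower. The step from 0 h to 3 h, the start of the light phase, gave 2351 (12.0%) and its repeat from 24 h to 27 h gave 826 (4.22%). In the light phase, the later steps of the first day gave 363 (1.86%, 3 h to 6 h), 11 (0.0562%, 6 h to 9 h) and 36 (0.184%, 9 h to 12 h), and those of the second day 65 (0.332%, 27 h to 30 h), 11 (0.0562%, 30 h to 33 h) and 6 (0.0307%, 33 h to 36 h). The 3 that followed ZT15, from 15 h to 24 h, gave 0 each by edgeR (0.0%), the step from 15 h to 18 h having 1933 genes at an unadjusted p under 0.05. Without 2 cortex libraries that stand apart (ZT0 replicate 1 and ZT9 replicate 9) the order changed: 3249 genes were called from 12 h to 15 h, 1487 from 0 h to 3 h, 735 from 3 h to 6 h, 30 from 6 h to 9 h, 243 from 9 h to 12 h and 57 from 15 h to 18 h. On the second day they were 1176 from 24 h to 27 h, 843 from 27 h to 30 h, 22 from 30 h to 33 h and 8 from 33 h to 36 h. Thus, with all ZT15 libraries kept, the change at lights-off was among the largest steps of the series. Its rank depended on ZT0 replicate 1 and ZT9 replicate 9. The ZT15 libraries with high Gm42418 are in the steps to and from 15 h, and no step was fitted without them. Leaving them out of the ZT-alone fit lowered its calls from 6239 to 1564. The rank of the step from 12 h to 15 h without them was therefore not tested.

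Seen over the day, these genes followed different courses. Means below leave out those 2 libraries, with SD and n = 11 or 12 for ZT0 to ZT12 and n = 6 for ZT15 to ZT21. Arc had 63.5 ± 51.3 CPM at ZT9, 102 ± 44.6 at ZT12, 335 ± 145 at ZT15 and 217 ± 114 at ZT18, and then 355 ± 113 at ZT0 and 40.3 ± 9.64 at ZT3. Homer1 went up from 164 ± 15.1 at ZT12 to 301 ± 27.0 at ZT15 and was still at 306 ± 37.9 at ZT3, when Arc was low. Hspa5 had 182 ± 6.99, 327 ± 52.2, 287 ± 26.6 and 290 ± 66.4 CPM at ZT12, ZT15, ZT18 and ZT21. Per2 and Bhlhe40 had their highest mean of the 8 times at ZT15, with 104 ± 11.1 and 221 ± 29.0 CPM. Arntl was lowest at ZT12, 34.0 ± 2.46 CPM, and had 43.1 ± 2.37 CPM at ZT15 and 63.9 ± 4.83 CPM at ZT0. Ciart and Hif3a had their highest means at ZT12, 31 ± 3.31 and 16 ± 1.36 CPM, and 22.2 ± 1.32 and 9.02 ± 2.89 CPM at ZT15. Cirbp lay between 71.8 and 75.1 CPM from ZT6 to ZT12 and between 38.1 and 47.8 CPM from ZT15 to ZT0. Opalin had its lowest mean, 13.6 ± 2.20 CPM, at ZT15 and its highest, 35.0 ± 8.64 CPM, at ZT6. These courses are descriptions, and tests of single genes between neighbouring times other than ZT12 and ZT15 are not reported here.

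**Figure D4:**
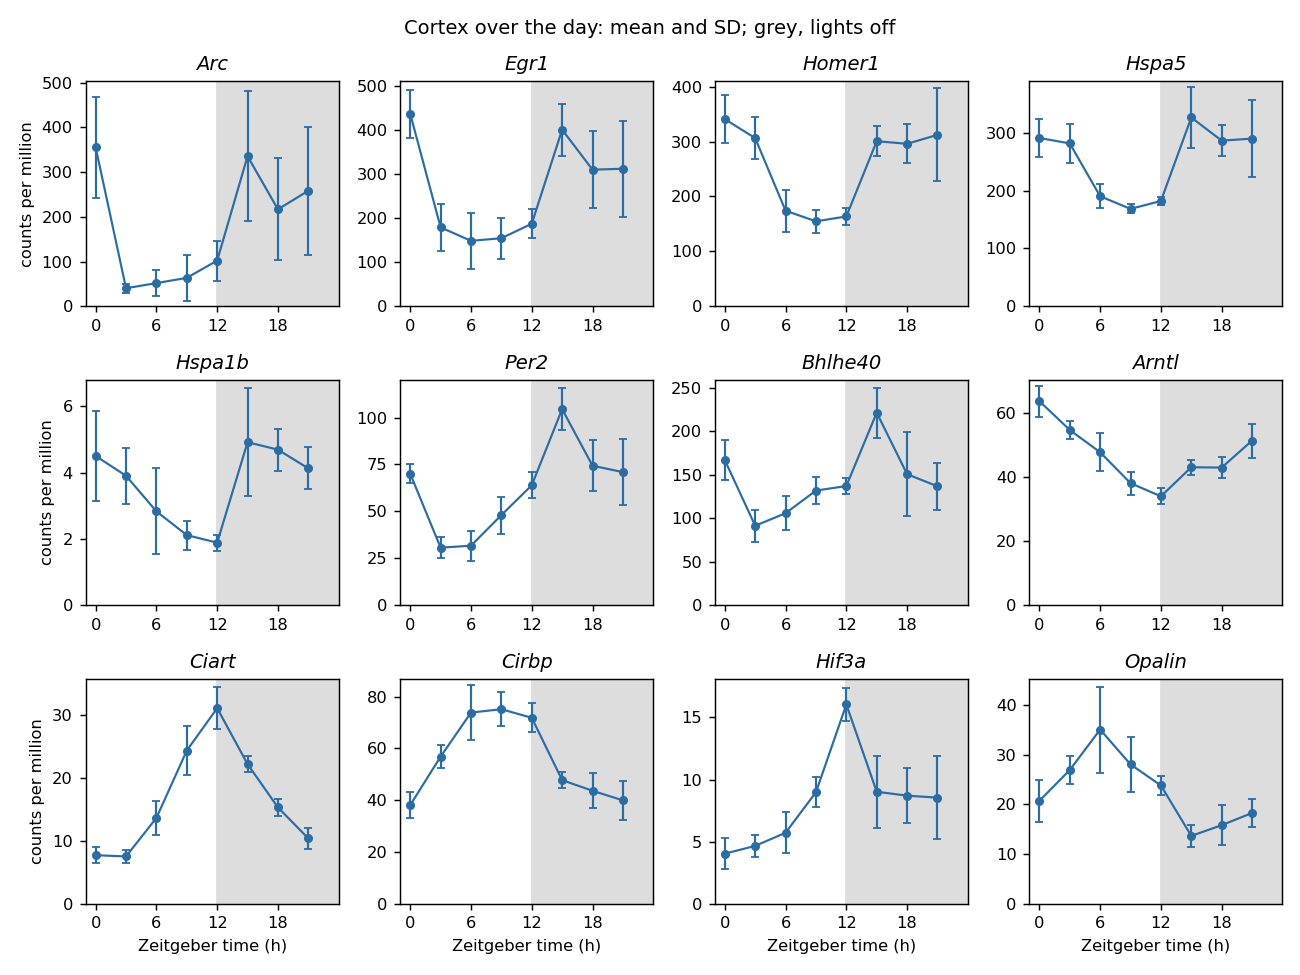
Mean CPM with SD of 12 genes in cortex at the 8 zeitgeber times (6 to 12 libraries each, 2 libraries that stand apart left out), with the dark phase in grey. Arc, Egr1, Homer1 and Hspa5 step up between ZT12 and ZT15, Per2 and Bhlhe40 are highest at ZT15, and Ciart, Cirbp, Hif3a and Opalin step down.

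The same interval was then compared with the hypothalamus and the liver of the same mice, with 12 mice at ZT12 and 6 at ZT15 and the mouse as a block. The change from ZT12 to ZT15 differed between cortex and hypothalamus in 990 of 17869 genes (5.54%), more positive in cortex for 385 (2.15%) and more negative for 605. With library totals as the scale the split was 227 more positive and 1073 more negative. Without the 3 mice whose cortex libraries stood apart, 15 genes were past the threshold, 13 of them more positive and 2 more negative in cortex, and with ZT12 at 12 h alone 22 were. In the hypothalamus, ZT15 replicate 5, from the same mouse as cortex ZT15 replicate 3, stood apart in the striatal marker sum, with 1175 CPM against 351 to 415 CPM in the other 17 libraries. Without that mouse, a fit added after this was seen, 249 genes differed, 123 more positive and 126 more negative in cortex. Gm42418 ranged from 4154 to 101919 CPM at ZT12 and from 2676 to 52905 CPM at ZT15 in hypothalamus, and its part in the tissue difference was not tested. For Fos, the hypothalamus mean was 8.0 ± 2.99 CPM (n = 12) at ZT12 and 8.07 ± 0.856 CPM (n = 6) at ZT15, and the cortex change exceeded that of the hypothalamus by 1.34 ± 0.20 on the log2 scale (adjusted p = 0.000976, and 0.235 without the 3 mice). Bhlhe40 (difference 0.64 ± 0.07, adjusted p = 0.00013), Trib2 (0.56 ± 0.07, adjusted p = 0.000222), Cbln4 (1.22 ± 0.15, adjusted p = 0.000222) and Per2 (0.74 ± 0.11, adjusted p = 0.00067) changed more positively in cortex, and each was past the threshold without the 3 mice, with ZT12 at 12 h alone and without the mouse of the hypothalamus library that stood apart. Lemd1 went in opposite directions, lower in cortex and higher in hypothalamus, where it had 11.4 ± 1.24 CPM at ZT12 and 14.2 ± 1.35 CPM at ZT15 (difference -0.85 ± 0.10, adjusted p = 0.00013). Its model shares 37.7% of its exonic bases with other models. 1700016P03Rik, the non-coding host transcript of the microRNA genes Mir212 and Mir132 in GENCODE M21 (chromosome 11, 75172560 to 75177633), rose in cortex from 2.40, 3.60 and 9.09 CPM to 8.98, 11.7 and 16.3 CPM (log2 1.5 ± 0.21). It had 2.5 ± 0.897 CPM at ZT12 and 2.7 ± 0.266 CPM at ZT15 in hypothalamus (difference 1.43 ± 0.16, adjusted p = 0.00013). Since 74.3% of its exonic bases are shared with Ovca2, the count of this transcript is uncertain, and mature microRNAs were not measured in these libraries.

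The gene groups were then counted in the other tissues, where the background differs: of all genes tested, 371 of 19215 (1.93%) were higher and 224 (1.17%) lower in hypothalamus, and 2120 of 15085 (14.1%) were higher and 2022 (13.4%) lower in liver. Without hypothalamus ZT15 replicate 5 the hypothalamus counts were 175 and 108. Of the 24 activity-induced transcription factors 4 rose in hypothalamus (2 without that library) and none fell, 10 changed more positively in cortex and 1 more negatively. The 10 became 2 without the 3 mice. Of the 16 MAP kinase inhibitors 1 rose in hypothalamus and none did without that library. The difference was called for 10, for 7 without that mouse and for none without the 3 mice. Of the ER chaperones 17 of 19 rose in cortex, 11 in hypothalamus (6 without replicate 5) and 16 in liver, and none fell in hypothalamus. Hspa5 changed by log2 0.90 ± 0.07 in cortex, 0.35 ± 0.06 in hypothalamus and 1.32 ± 0.13 in liver. Of the cytosolic chaperone list 16 of 20 rose in cortex, 12 in hypothalamus (9 without replicate 5) and 19 in liver. Hspa1b changed by 1.44 ± 0.15, 2.24 ± 0.24 and 2.60 ± 0.20. In liver the rise exceeded that in cortex for 16 of the 20. Cirbp fell in all 3 tissues, by 0.54 (SE 0.05), 0.56 (SE 0.09) and 0.54 (SE 0.13), and the differences of cortex from hypothalamus and liver were 0.04 ± 0.09 and 0.00 ± 0.11.

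Between cortex and liver 3651 of 13837 genes (26.4%) changed differently, 1785 (12.9%) of them more positively in cortex. Without the 3 mice the number was 1779. The clock genes were far apart. Arntl rose in liver from 1.56 ± 0.699 to 14 ± 4.45 CPM (log2 3.20 ± 0.23), by 2.81 more than in cortex (SE 0.21, adjusted p = 1.28e-08). Dbp fell in liver from 104 ± 18.8 to 17.6 ± 6.48 CPM, a log2 change of -2.55 ± 0.20 against -0.32 ± 0.06 in cortex (adjusted p = 8.03e-09). Ciart changed by -1.39 ± 0.20 in liver, with a difference of 1.04 ± 0.20 (adjusted p = 0.000497). Per2, in contrast, rose in both, by 0.76 ± 0.07 and 0.93 ± 0.09, and the difference of -0.17 ± 0.09 did not pass (adjusted p = 0.193). C77080 rose in cortex (0.54 ± 0.07) and fell in liver (-0.87 ± 0.09), and Ints2, a subunit of the Integrator complex, did the opposite (-0.37 ± 0.06 and 1.24 ± 0.11). Hspa8 rose in both, 0.31 ± 0.05 in cortex and 1.25 ± 0.08 in liver.

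**Figure D5:**
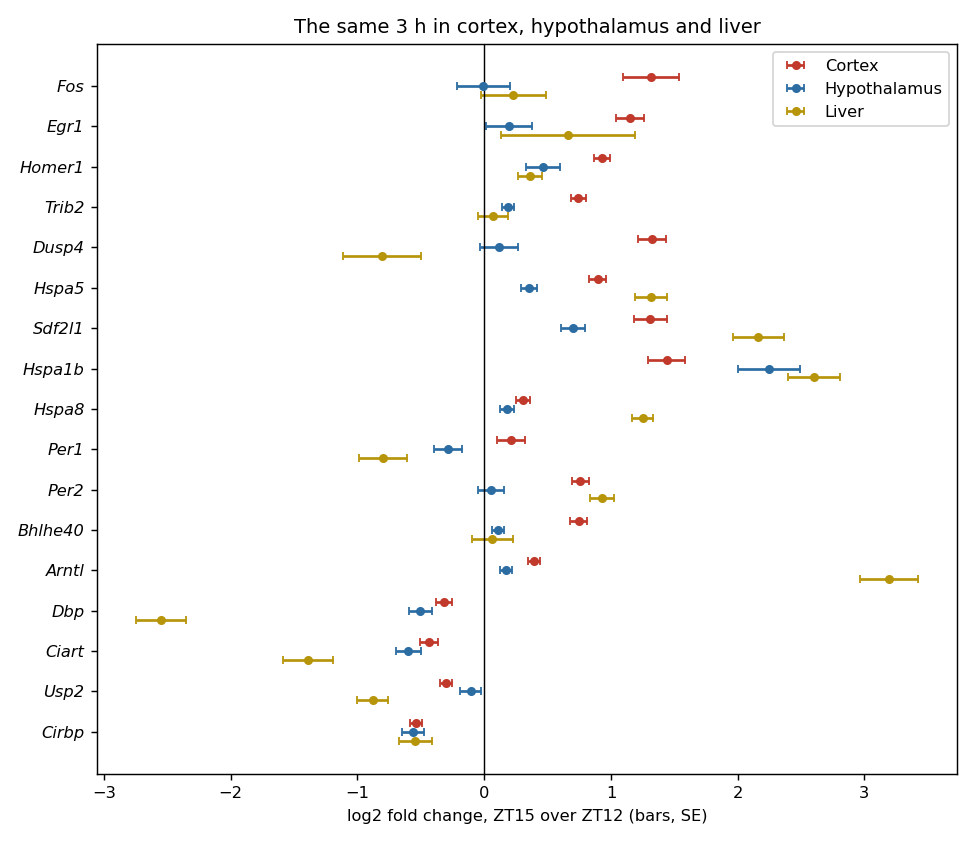
Log2 fold change from ZT12 to ZT15 (bars, SE) of 17 genes in cortex, hypothalamus and liver, from a separate fit per tissue (12 libraries at ZT12 and 6 at ZT15 each). Fos, Egr1, Dusp4 and Bhlhe40 lie furthest right in cortex, Arntl, Dbp, Hspa1b and Hspa8 lie furthest from 0 in liver, and Cirbp lies at about -0.55 in all 3.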

How the data were processed

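Messenger RNA libraries were grouped by the tissue and ZT in the labels. The deposited values are raw counts per Ensembl gene and FPKM values made by the authors from them. Per the submitters' processing notes, the tools were HTSeq 0.10.0 and STAR 2.7.3a, on builds mm10 and GRCm38. No source used here gives the strand setting or the annotation release, so reads of overlapping genes on opposite strands may not be separable. Of 48795 gene identifiers 48349 matched a symbol. Positions and shared exonic bases (bedtools 2.31.1) came from GENCODE M21, and promoters from RefSeq, GRCm38.p6.

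Counts were tested with edgeR 4.0.16 (R 4.3.3): filterByExpr, trimmed-mean (TMM) factors, quasi-likelihood test, Benjamini-Hochberg adjustment over all genes tested, with the 18 libraries in the fit. SE is the log2 change over the square root of F. CPM are counts over the library total, and FPKM was used only to set levels of genes side by side. Tissue differences are interaction terms with the mouse as a block. On simulated counts for this comparison (18406 genes) the test found 99 of 100 genes changed 1.5-fold and 100 of 100 changed 2-fold. There were 20 false calls. The changed genes were drawn only among genes with a mean of at least 100 counts. The simulated results are not split by the ZT15 libraries that stood apart. They therefore do not show how the test performs on low genes or under that difference between libraries. The 2 added terms were the log2 striatal marker sum and log2 Gm42418 CPM.

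The members and the 30 gene lists (454 entries, all matched, 449 tested) were chosen with earlier results of these data known. Named genes were taken by rule: all clock and clock output genes, the 4 called genes with the smallest p of each other list (2 where none was called), the 15 largest rises and 15 largest falls with mean log2 CPM of at least 1, leaving out unnamed models, and 5 per tissue comparison; a part is described. Replicate numbers are the submitters'; same-numbered ZT12 and ZT15 libraries are different mice. Alternatives covered scaling, DESeq2 1.42.0, the gene filter, the time points, other libraries in the fit and each library left out. A few named genes are not reported here.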

Additional observations from a re-analysis of the deposited data

Results flagged for a closer look

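Within the 6 ZT15 libraries of cortex, 154 named genes were screened for a library far from the others, by comparing the gap to its nearest neighbour with the whole range (Dixon's 95% critical value 0.625). The screen passed 5 genes, and chance passes about 1 gene in 20. Each was a high value: Flt1 in replicate 4 (103 CPM), Gadd45a in replicate 3 (12.9 CPM), and Gpr101 (1.35 CPM), Ndst4 (18.7 CPM) and Baiap3 (8.08 CPM) in replicate 1. The gap was 0.963 of the range for Ndst4, 0.753 for Flt1, 0.670 for Gadd45a, 0.646 for Gpr101 and 0.627 for Baiap3.

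Among the named genes whose change from ZT12 to ZT15 differed between tissues of the same mice (interaction test of edgeR), 10 were flagged. As the cortex change minus the hypothalamus change, on the log2 scale, these were Bhlhe40 (0.64, adjusted p = 0.00013), Trib2 (0.56, adjusted p = 0.000222), Cbln4 (1.22, adjusted p = 0.000222), Lemd1 (-0.85, adjusted p = 0.00013) and 1700016P03Rik (1.43, adjusted p = 0.00013). Against liver they were Arntl (-2.81, adjusted p = 1.28e-08), Dbp (2.27, adjusted p = 8.03e-09), C77080 (1.38, adjusted p = 5.91e-09), Ints2 (-1.62, adjusted p = 1.26e-08) and Hspa8 (-0.95, adjusted p = 3.31e-08). These 10 are the genes with the smallest p of each tissue comparison among those called in cortex.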

How the results depend on the processing

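The 6239 called genes (50.5% higher at ZT15) became 6211 with the size factors of DESeq2 in edgeR, 6445 with DESeq2, 5675 without the gene filter and 6989 with the L code of the library names as a term. With library totals as the scale 32.4% of the calls were higher. The number fell to 3013 with ZT12 at 12 h alone and 4136 with ZT12 at 36 h alone. With a replicate block, fitted only on replicates 1 to 6 of each group, the number was 3479. It was 3210 in a fit over all 78 cortex libraries. It was 1299 with the striatal marker sum as a term, 2724 with the Gm42418 level, 1320 with both, and 1564 without ZT15 replicates 3, 5 and 6. These last 4 were chosen after seeing the data. Leaving out each library in turn gave 4568 to 7052 genes, of which 48.5% to 50.9% were higher. The cause of these differences was not tested. Of 157 named genes, those with the same direction and side of the threshold were 157 with the other size factors, 156 with DESeq2, 149 with library totals, 133 with the block, 84 with the striatal term, 117 with the Gm42418 term and 90 without the 3 libraries. The direction turned for 4 called genes: Ly6c1 to -0.0066 (striatal term) and -0.040 (both terms), Tac1 to 0.046 and 0.051, Six3 to 0.035 and 0.024, and Mir6236 to -0.24 (Gm42418 term) and -0.28 (both). The tissue difference for hypothalamus fell from 990 genes to 22 with ZT12 at 12 h alone, 15 without the 3 mice and 249 without the mouse of hypothalamus ZT15 replicate 5 (added after seeing the data), and that for liver from 3651 to 2068 and 1779. The step from 12 h to 15 h rose from 1999 genes to 3249 without ZT0 replicate 1 and ZT9 replicate 9. Same-numbered ZT12 and ZT15 libraries are different mice. The correlation of their deviations from the group means was -0.075 to 0.208 over the 6 numbers, and replicate 1 was the single number whose libraries correlated best with each other, so the numbers do not pair the libraries. Depth limits the low genes: at these totals 1 CPM is 29.2 to 37.0 counts.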
